A study of Mus musculus with 27 samples.

Results

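Neutrophils sorted from mammary tumours were compared between mice given cisplatin together with an antibody against CSF-1R, called the combination here, and mice given anti-CSF-1R alone, over all genes measured. The treatment labels chose the libraries: 4 of the combination and 4 of anti-CSF-1R, which are 8 of the 27 libraries of the series. Another 3 neutrophil libraries from mice given cisplatin with a control antibody and 4 from mice given the control antibody entered the same fit and gave the matching comparison without anti-CSF-1R. All mice were of the K14cre;Cdh1F/F;Trp53F/F model, in which Cre driven by the keratin 14 promoter deletes E-cadherin and p53 in K14-expressing epithelium, so these alleles were shared by every group. Mice of the combination and cisplatin groups had 2 cisplatin injections and were killed 1 day after the second, whereas anti-CSF-1R and control mice received no cisplatin and were killed when the tumour reached 100 mm2. Cisplatin and this difference in endpoint cannot be told apart. Each library was made from 10 ng of total RNA of sorted cells, and in such bulk samples fewer cells of a type and less RNA per cell cannot be told apart. The labels do not tie a group's libraries to different mice, so the spread behind each p-value is that between these samples and may be technical.

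CSF-1R is the receptor for the growth factors CSF-1 and IL-34 on which tissue macrophages depend, and antibodies against it are used to deplete tumour macrophages. Neutrophils are short-lived granulocytes that mature under G-CSF, leave the bone marrow through CXCR2 and carry preformed granule proteins. Cisplatin crosslinks DNA. Type I interferons act through STAT2 and IRF9, which bind interferon-stimulated response elements, and the interferon-gamma response includes the transcription factor IRF1. Both raise antiviral genes, guanylate-binding proteins and MHC class I in most cell types, neutrophils included.

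Values are the authors' read counts divided by a size factor per library, called normalised read counts here. Many of the smaller values had lost the place of their decimal point. It was put back by requiring whole reads, but for 67.3% of values in the neutrophil libraries whole reads alone allowed several places. Among these the place was chosen with a negative binomial model that uses the treatment groups. The p-values and the counts of genes without overlap given below are therefore not independent of the treatment labels. A value whose place stayed uncertain (probability under 0.95) was left out, so some genes have fewer than 4 values in a group. The decoded reads came to 1016048 to 3283483 in the combination libraries and 1121691 to 2182871 in the anti-CSF-1R libraries. Combination replicate 2 stood apart from the other libraries on the first principal component (at 44.5, with 23.8% of the variance), as did cisplatin replicate 2 (29.2), while the other 13 lay between -19.9 and 8.85. Of the 8 libraries, anti-CSF-1R replicate 3 had the lowest level of the type I interferon-stimulated genes, and anti-CSF-1R replicate 2 that of the interferon-gamma-responsive genes. Values without these libraries are given where they matter.

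The sorted cells carried many neutrophil markers, while Ly6g, also on the marker list, was not among the genes measured. Values and sums in this paragraph take the most probable place of each number, also where it was left out of the fits behind the fold changes. Csf3r, the G-CSF receptor, stood at 7304, 12863, 9702 and 8349 in the combination libraries and at 5898, 8265, 4843 and 7903 in the anti-CSF-1R libraries, and the calgranulins S100a8 and S100a9 were abundant in all 8. In anti-CSF-1R replicate 3 Cd74, of the MHC class II list, stood at 13064 against 9078 for S100a9. S100a9 stood above Cd74 in each of the other libraries. Of the 22 measured neutrophil markers 18 stood higher in the combination (median log2 fold change 0.50), with a summed level of 67056 to 179169 in the combination and 60609 to 95081 with anti-CSF-1R. Combination replicate 2 held the highest sum, and the median was 0.13 without that library. Macrophage markers, 17 of 26 higher (median 0.21), summed to 3960 to 11717 in the combination and 4849 to 8374 with anti-CSF-1R. Spp1 alone made up 8585 of the 11717, in combination replicate 2. The median of the macrophage list was 0.08 without combination replicate 1 and 0.47 without combination replicate 3. Over 28 alternative settings of the processing and the libraries it ran from -0.21 to 0.47, so its direction was not firm. Csf1r, the receptor that the antibody binds, stood at 962, 606, 1248 and 945 in the combination and 770, 1128, 1338 and 1047 with anti-CSF-1R (log2 fold change -0.21 ± 0.27 SE), and its groups overlapped. Of 10 fibroblast markers 8 stood higher in the combination (median 0.94), mainly in replicates 1 and 4, with summed levels of 199 to 650 in the combination and 124 to 308 with anti-CSF-1R. The B cell gene Cd79a was listed at 37.4 in combination replicate 1 and at 190 in anti-CSF-1R replicate 1, and at 9.78 or less in the other 6 libraries. Of 4 measured epithelial markers 3 stood higher in the combination (median 0.83), with sums of 18.4 to 164 in the combination and 12.7 to 38.1 with anti-CSF-1R. The highest sum was that of combination replicate 1, which held Csn3 at 64.4, Krt19 at 39.5 and Krt18 at 31.2, while Krt14 reached at most 3.87 in the combination and 5.87 with anti-CSF-1R. The mast cell proteases Mcpt4 and Tpsb2 were listed at 1 (the table's floor) in all 4 combination libraries and reached 33.6 and 27.8 in anti-CSF-1R replicate 3. Of 5 eosinophil markers 4 stood higher in the combination (median 1.14), with sums of 161 to 768 in the combination and 224 to 528 with anti-CSF-1R. That median was 0.61 without anti-CSF-1R replicate 3, and the 1 eosinophil marker left by a stricter filter on low values, Siglecf, had -0.11. What these other cells add to the results was not tested.

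No single gene passed an adjusted p under 0.05 between the groups, with the 4 neutrophil groups in 1 fit. Of 9118 genes, limma passed 0 at an adjusted p under 0.05 (0.0%), with a lowest adjusted p of 0.131, and limma-voom passed 0 as well (lowest adjusted p 0.334). At an unadjusted p under 0.05 limma held 834 genes (9.15%), of which 507 stood higher in the combination (5.56%) and 327 lower (3.59%), and limma-voom held 903. Counts of list members given below at that level stand against these shares of all genes. Among the libraries with a value, the groups did not overlap for 361 genes on the higher side (3.96%) and 238 on the lower side (2.61%). Like the counts at an unadjusted p under 0.05, these rest on decoding that uses the groups. Over all genes 4709 stood higher in the combination (51.6%) and the median log2 fold change was 0.02. Division by a size factor per library brings the typical gene near no difference. These values therefore cannot show whether either group stood higher over all genes. The median standard error of 0.36 gives a median 95% interval of 0.75 on each side, and for 3845 genes (42.2%) that interval lay between -1 and 1. For the other genes these libraries cannot tell a difference of that size from none. The number of genes at an unadjusted p under 0.05 was 495 without anti-CSF-1R replicate 3.

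Genes of the 2 interferon lists stood higher in the combination nearly without exception. The lists were chosen with earlier results of these data known and share some genes. Their counts therefore describe these libraries and are not a test. Of 66 measured type I interferon-stimulated genes 65 had a higher mean in the combination (median log2 fold change 1.07, against 0.02 over all genes). Of these, 40 had an unadjusted p under 0.05, all on the higher side, and 14 had groups that did not overlap. None of the 66 passed over all genes. Of 33 interferon-gamma-responsive genes 32 stood higher (median 0.94), 13 of them at an unadjusted p under 0.05 and 8 without overlap. That 13 was 5 without anti-CSF-1R replicate 2, 6 without combination replicate 4, 7 without combination replicate 2, 8 without anti-CSF-1R replicate 3 and 6 after quantile normalisation, with medians of 0.68 to 1.13 when a library was left out. Of the 5 members whose values needed no decoding 4 stood higher (median 0.35). The median of the type I list was lowest without anti-CSF-1R replicate 3 (0.82, with 21 genes at an unadjusted p under 0.05) and highest without anti-CSF-1R replicate 4 (1.44, with 45). Without combination replicate 2 it was 0.88 with 23 such genes, and without anti-CSF-1R replicate 2 it was 0.88 with 26.

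**Figure D1:**
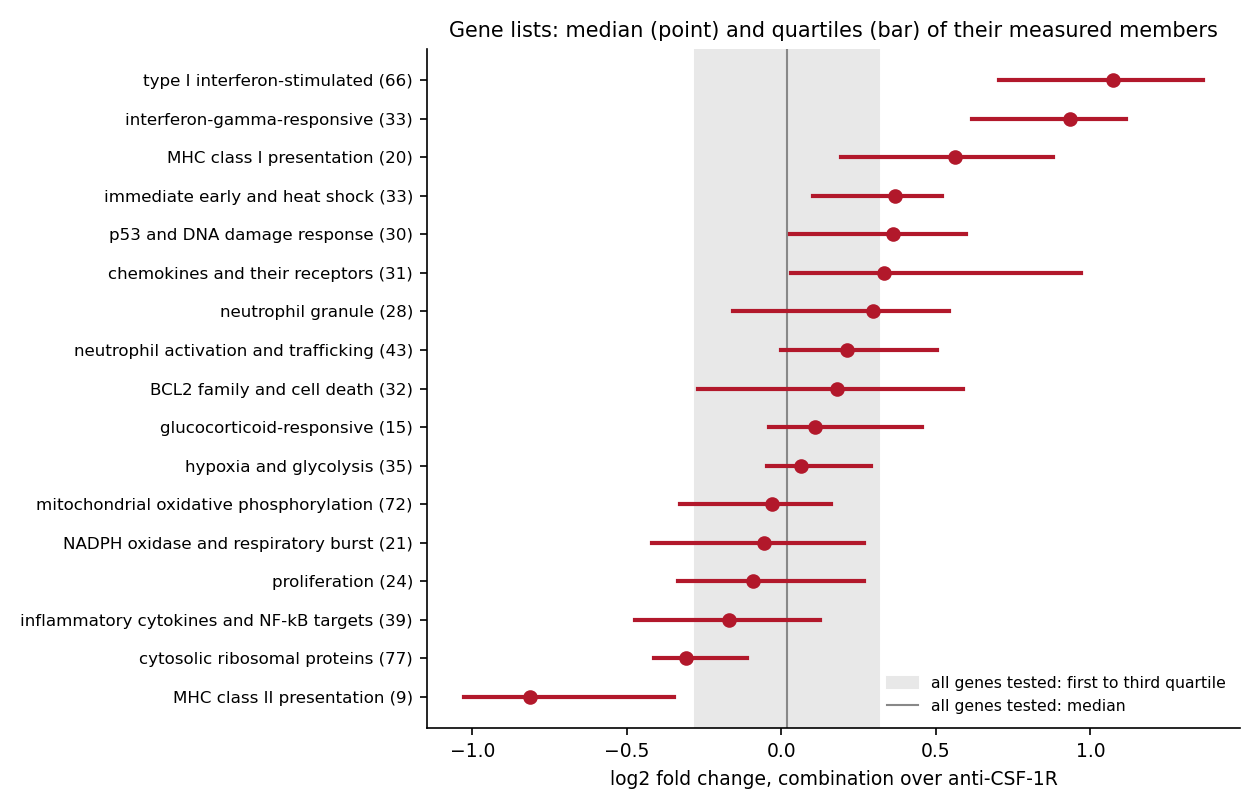
Log2 fold change of combination over anti-CSF-1R (x axis) for 17 gene lists (y axis, number of measured members in brackets); points are medians, bars run from the first to the third quartile of the members, and the grey band and line show the quartiles and median of all 9118 genes. The interferon lists have the highest medians (1.07 and 0.94) and MHC class II the lowest (-0.81).

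Levels within a group varied widely for these genes. The level of the type I list in a library, taken as the average over genes of log2 value minus that gene's average in the 15 neutrophil libraries, was 1.07, 1.33, 0.41 and 0.84 in combination replicates 1 to 4 and -0.04, -0.44, -1.14 and 0.76 in anti-CSF-1R replicates 1 to 4. The lowest combination library lay below the highest anti-CSF-1R library, and the groups overlapped. For the interferon-gamma list the levels were 0.72, 1.23, 0.08 and 1.27 in the combination and 0.43, -0.68, -0.31 and 0.06 with anti-CSF-1R. Combination replicate 3 was the lowest of its group in both lists. Levels with cisplatin and the control antibody were 0.05, -0.58 and -0.23 for the type I list, against -0.96, -1.60, -1.57 and 0.06 in controls.

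**Figure D2:**
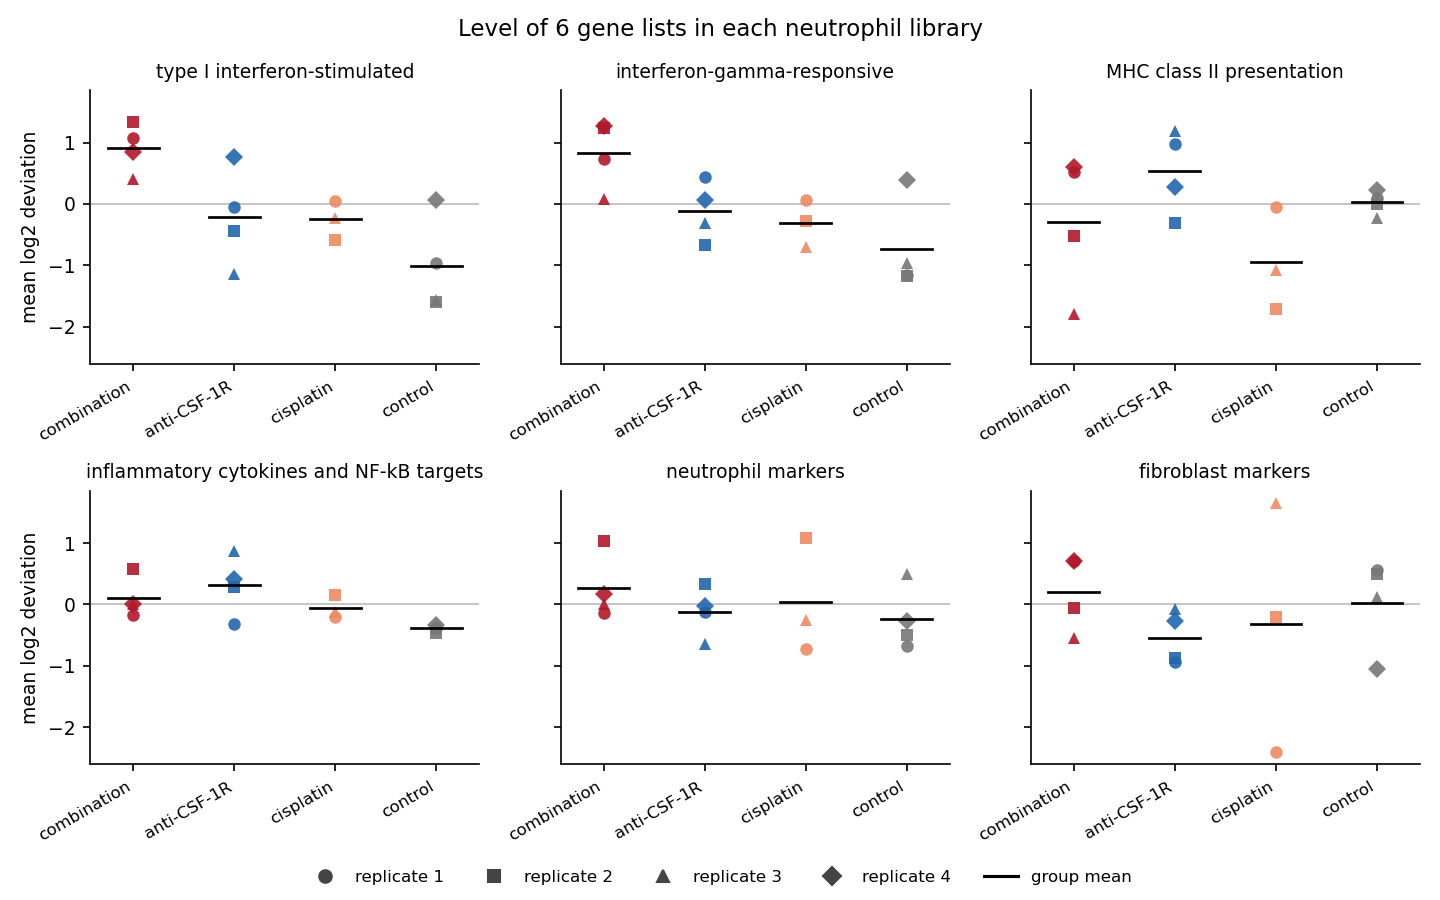
Mean log2 deviation (y axis) of 6 gene lists in each of the 15 neutrophil libraries, by treatment group (x axis); symbols mark replicates, and black lines are group means. The combination libraries lie at 0.41 to 1.33 for type I interferon-stimulated genes and the anti-CSF-1R libraries at -1.14 to 0.76, and the neutrophil markers are highest in combination replicate 2 and cisplatin replicate 2.

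Many genes of the interferon lists share a sequence upstream of their start. The share below covers all list members with an entry, whatever their change here. It therefore describes the lists and does not bear on the difference between the treatments. The RefSeq table of mouse promoters (build GRCm38.p6) held 50 of the 66 type I genes and 22 of the 33 interferon-gamma genes. The motif GAAANNGAAA, the core of the interferon-stimulated response element, was searched on both strands in the 250 bases before each start, and overlapping matches were kept. It was found for 20 of the 50 type I genes (40%) and 9 of the 22 interferon-gamma genes (40.9%), against 248 of 6986 tested genes with an entry (3.55%) and 3.46% of all 27025 genes of the table. Over the other 15 programme lists the share was 0% to 14.3%, highest for NADPH oxidase genes (14.3%), MHC class I (13.3%) and cytosolic ribosomal proteins (10.7%), all above the share of all tested genes. Of the 4 type I genes with the smallest p, Ifit3 and Isg15 had a match, Cmpk2 had none in this window, and Usp18 is named only. Irgm2, of the interferon-gamma list, had a match. Irf7 had no match in this window. Ifit3, Isg15 and Irgm2 are shown because they hold the motif, 5′ to 3′ toward the start of the gene, with the matched bases in capitals. Ifit3 is at chr19:34583279-34583528 (plus strand), Isg15 at chr4:156200819-156201068 (minus strand) and Irgm2 at chr11:58214727-58214976 (plus strand, before the RefSeq start, which lies inside the longer GENCODE gene).
Ifit3: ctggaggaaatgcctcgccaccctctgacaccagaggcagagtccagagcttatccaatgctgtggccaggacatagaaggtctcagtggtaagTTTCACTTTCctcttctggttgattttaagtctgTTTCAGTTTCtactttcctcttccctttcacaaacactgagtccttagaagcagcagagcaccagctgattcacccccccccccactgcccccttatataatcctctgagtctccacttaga
Isg15: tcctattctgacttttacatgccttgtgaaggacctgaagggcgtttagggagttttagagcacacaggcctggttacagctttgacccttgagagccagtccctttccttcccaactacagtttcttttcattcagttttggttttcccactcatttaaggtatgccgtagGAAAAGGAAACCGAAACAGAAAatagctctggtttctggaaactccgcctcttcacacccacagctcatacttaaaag
Irgm2: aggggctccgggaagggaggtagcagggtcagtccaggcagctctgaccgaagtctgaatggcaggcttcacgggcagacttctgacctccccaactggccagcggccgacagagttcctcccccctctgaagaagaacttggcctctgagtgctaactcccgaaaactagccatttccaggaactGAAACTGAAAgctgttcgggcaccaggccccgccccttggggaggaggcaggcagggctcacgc
In Ifit3 both matches were on the minus strand, with their first bases 156 and 122 bases before the start. The 3 matches of Isg15 overlap each other, from 78 to 57 bases before its start, and the match of Irgm2 begins 64 bases before its start. A match describes these letters and not a bound factor.

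Among the antiviral effectors, Isg15, a ubiquitin-like protein attached to other proteins (chromosome 4, 156199424 to 156200818, minus strand), stood at 991, 1859, 738 and 1441 in the combination and 634, 276, 120 and 765 with anti-CSF-1R. Its lowest combination value lay just below the anti-CSF-1R replicate 4 value, so the groups overlapped by that pair alone (log2 fold change 1.73 ± 0.48 SE, limma adjusted p = 0.322). None of its 8 values needed a decimal place to be decoded. Ifit3, an RNA-binding antiviral protein (chromosome 19, 34583531 to 34588731, plus strand), stood at 538, 862, 407 and 417 in the combination and 164, 121 and 291 in anti-CSF-1R replicates 1, 2 and 4. Every combination value lay above these, and the value left out in anti-CSF-1R replicate 3 was 13.9 or 139 (log2 fold change 1.56 ± 0.42 SE, limma adjusted p = 0.322). Cmpk2, a mitochondrial nucleotide kinase induced by interferon, stood at 663, 1542 and 511 in combination replicates 1, 2 and 4 and 284, 182 and 424 in anti-CSF-1R replicates 1, 2 and 4. The value left out in combination replicate 3 was 34.3 or 343, and either would place it below anti-CSF-1R replicate 4.

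The regulators of the pathway stood higher too. Stat2, a transcription factor of type I signalling, stood at 522, 709, 379 and 548 in the combination and 291, 180, 198 and 405 with anti-CSF-1R, where replicate 4 lay above the lowest combination value. Irf7, which amplifies type I interferon production, stood at 549, 633, 385 and 460 in the combination and, with anti-CSF-1R, at 171, 113 and 384 in replicates 1, 2 and 4. The Irf7 value left out in anti-CSF-1R replicate 3 was 61.4 or 614. Usp18, a protease that removes Isg15 and dampens interferon receptor signalling, stood at 360, 635, 287 and 284 in the combination and 88.5 and 141 in anti-CSF-1R replicates 1 and 2 (log2 fold change 1.72 ± 0.45 SE). The values left out were 18.5 or 185 in anti-CSF-1R replicate 3 and 26.6 or 266 in replicate 4, all below the combination values. Irf7 and Stat2 were named after their values were seen.

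**Figure D3:**
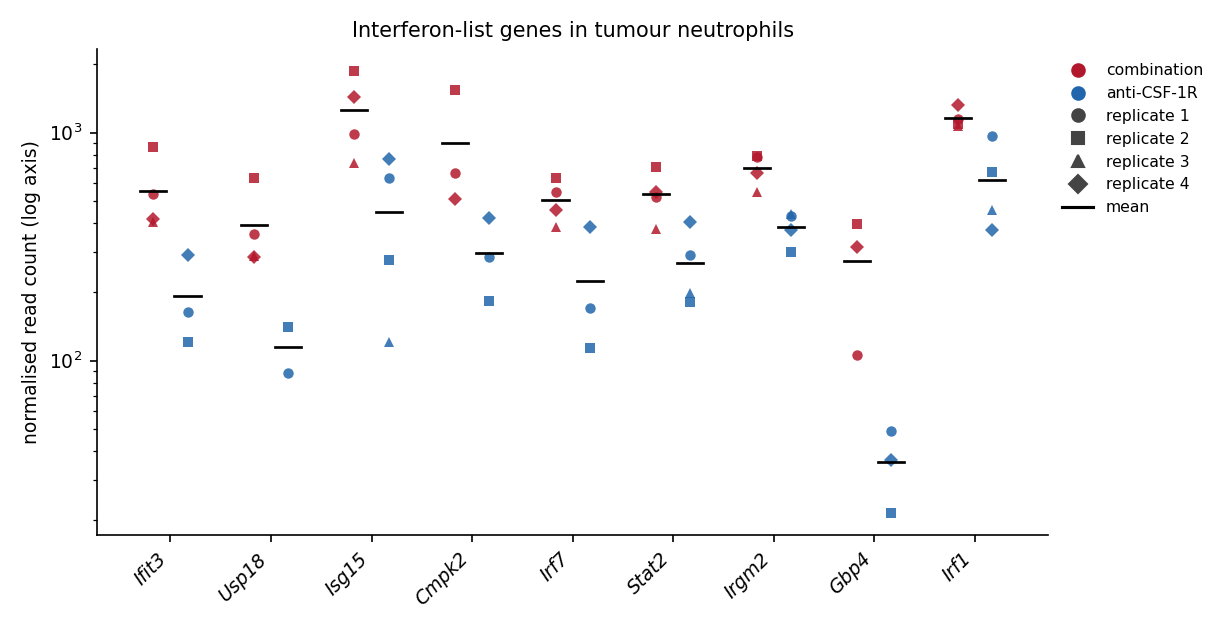
Normalised read counts (y axis, log scale) of 9 genes of the interferon lists in the combination (red) and anti-CSF-1R (blue) libraries; symbols mark replicates, lines are group means, and values left out in decoding are not drawn. Anti-CSF-1R replicate 4 (diamonds) lies near the combination for Isg15, Irf7 and Stat2 but not for Irgm2, Gbp4 or Irf1.

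Interferon-gamma-responsive GTPases stood higher as well. Irgm2, an immunity-related GTPase that acts at pathogen-containing vacuoles (chromosome 11, 58199618 to 58222782, plus strand, overlapping Igtp on the same strand), stood at 781, 792, 549 and 668 in the combination and 430, 299, 440 and 375 with anti-CSF-1R. The groups did not overlap (log2 fold change 0.85 ± 0.24 SE, limma adjusted p = 0.325). Gbp4, a guanylate-binding protein (chromosome 5, 105115767 to 105139586, minus strand, overlapping Gbp8 and Gbp9), had the smallest p on the higher side. It stood at 106, 399 and 316 in combination replicates 1, 2 and 4 and 49.2, 21.5 and 36.5 in anti-CSF-1R replicates 1, 2 and 4 (log2 fold change 2.78 ± 0.45 SE, limma adjusted p = 0.131). The 2 values left out were 29.4 or 294 in combination replicate 3 and 5.79, 57.9 or 579 in anti-CSF-1R replicate 3. When the decoding ignored treatment, the Gbp4 log2 fold change was 2.03 (unadjusted p = 0.0141 by limma). Gbp and Irgm genes have near-identical copies that can share reads, so their counts are uncertain. Irf1, the transcription factor of the interferon-gamma response, stood at 1145, 1090, 1071 and 1317 in the combination and 968, 671, 458 and 375 with anti-CSF-1R, without overlap (log2 fold change 0.99 ± 0.44 SE, adjusted p = 0.50 by limma, named after its values were seen).

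Antigen presentation was split by class. Of 20 MHC class I genes, which show peptides to CD8 T cells, 17 stood higher in the combination (median 0.56), 8 of them at an unadjusted p under 0.05 on the higher side. That count was 1 without combination replicate 2, 2 without anti-CSF-1R replicate 2 and 3 without combination replicate 4 or anti-CSF-1R replicate 3. The class I median ran from 0.35 to 0.76 when a library was left out. Over 28 alternative settings of the processing and the libraries its lowest was 0.16. B2m, the light chain of class I, stood at 12776, 20343, 11912 and 18270 in the combination and 10251, 9634, 6762 and 12607 with anti-CSF-1R (log2 fold change 0.69 ± 0.31 SE, limma adjusted p = 0.504, named after its values were seen), and its groups overlapped in anti-CSF-1R replicate 4. The chaperone Canx was the 1 class I gene on the lower side at an unadjusted p under 0.05, at 441, 416, 477 and 460 in the combination and 580, 555, 730 and 550 with anti-CSF-1R, without overlap (named after its values were seen). Reads of the H2-Q, H2-T and H2-D genes can be shared among near-identical copies. Of 9 MHC class II genes, which are used by antigen-presenting cells, 8 stood lower in the combination (median -0.81). H2-Ab1 stood at 1584, 571, 269 and 1367 in the combination and 1419, 1007, 3075 and 1509 with anti-CSF-1R (log2 fold change -1.08 ± 0.51 SE, limma adjusted p = 0.544). Cd74, the invariant chain, which travels with class II, had a like pattern, with 7455, 2804, 1259 and 6712 in the combination and 6515, 3707, 13064 and 6949 with anti-CSF-1R. Class II was low in combination replicates 2 and 3 and high in anti-CSF-1R replicate 3, and the other 5 libraries overlapped. Without anti-CSF-1R replicate 1 the class II median was -0.42.

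Subunits and targets of NF-kB were split. Of 39 inflammatory cytokines and NF-kB targets 24 stood lower (median -0.17), 6 of them at an unadjusted p under 0.05, and 1 gene, Osm, stood on the higher side at that level. The direction of the list turned on single libraries: its median was -0.41 without combination replicate 2, -0.37 without anti-CSF-1R replicate 1, -0.01 without combination replicate 1 and 0.02 without anti-CSF-1R replicate 3. Nfkb1, which encodes the p105 precursor of the p50 subunit (chromosome 3, 135584655 to 135691547, minus strand), stood at 360, 323 and 413 in combination replicates 1, 2 and 4 and 592, 1112, 1177 and 788 with anti-CSF-1R (log2 fold change -1.28 ± 0.27 SE, limma adjusted p = 0.321). The value left out in combination replicate 3 was 83.3 or 833, and only the lower one keeps the groups apart. Rel, the c-Rel subunit, stood at 1139, 968, 1107 and 896 in the combination and 1301, 1711, 2022 and 1480 with anti-CSF-1R, and its groups did not overlap (log2 fold change -0.65 ± 0.21 SE, adjusted p = 0.379 by limma). Traf1, an NF-kB-induced adaptor of TNF receptors, stood at 245, 540, 405 and 269 in the combination and 315, 811, 935 and 665 with anti-CSF-1R, where replicate 1 lay within the combination range.

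Il10, the anti-inflammatory cytokine (chromosome 1, 131019845 to 131024974, plus strand), stood at 60.3, 56.2, 67.0 and 57.7 in the combination, a narrow range, and 102, 347 and 142 in anti-CSF-1R replicates 2, 3 and 4 (log2 fold change -1.49 ± 0.41 SE, limma adjusted p = 0.322). The value left out in anti-CSF-1R replicate 1 was 3.575, 35.75 or 357.5, and the groups stay apart with only the highest of these. Osm, oncostatin M, stood at 378, 2119 and 377 in combination replicates 1, 2 and 4 and 262, 229, 342 and 283 with anti-CSF-1R. Its mean in the combination rested on replicate 2, and the value left out in replicate 3 was 63.7 or 637 (Osm was named after its values were seen).

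Of 43 genes of neutrophil activation and trafficking 32 stood higher (median 0.21), with 8 at an unadjusted p under 0.05 and 5 without overlap on the higher side and 0 of either on the lower side. After quantile normalisation the median was 0.00035 and 22 of the 43 stood higher, so the direction of the list depended on scaling. Cxcr2, the receptor for CXCL1 and CXCL2 (chromosome 1, 74153989 to 74161246, plus strand), stood at 6487, 12395, 7337 and 5834 in the combination and 3774, 4969, 2371 and 5680 with anti-CSF-1R, without overlap (log2 fold change 0.94 ± 0.33 SE, limma adjusted p = 0.40). Selplg, the ligand PSGL-1 for selectins on the vessel wall (chromosome 5, 113818536 to 113832644, minus strand), stood at 954, 1619, 1258 and 1091 in the combination and 847, 620, 505 and 832 with anti-CSF-1R, also without overlap (log2 fold change 0.82 ± 0.26 SE, limma adjusted p = 0.379). Ltb4r1, the leukotriene B4 receptor, stood at 39.5, 56.2, 52.3 and 35.0 in the combination and 18.8, 19.5, 22.01 and 22.1 with anti-CSF-1R, apart in all 8 libraries. Fcgr4, an activating Fc receptor, stood at 204, 531, 188 and 312 in the combination and 157, 78.2, 61.4 and 196 with anti-CSF-1R, and combination replicate 3 lay below anti-CSF-1R replicate 4. Of 28 granule genes 18 stood higher (median 0.30). The gelatinase Mmp9 was the 1 gene at an unadjusted p under 0.05, against 5.56% of all genes on the higher side. Mmp9 stood at 1043, 2822, 991 and 1074 in the combination and 811, 874, 590 and 984 with anti-CSF-1R, and combination replicate 2 alone was far above. Its unadjusted p was 0.198 in limma without that library. The granule median was 0.14 without anti-CSF-1R replicate 3 and 0.18 without combination replicate 2, with 0 genes at an unadjusted p under 0.05 in either, and also 0 without anti-CSF-1R replicate 1.

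Of 31 chemokines and chemokine receptors 23 stood higher (median 0.33), with 6 at an unadjusted p under 0.05 on the higher side and 2 on the lower. Without combination replicate 3 the median was 0.64 with 10 such genes on the higher side, and without combination replicate 4 it was 0.23 with 4. Pf4, a chemokine of platelets that macrophages also make, stood at 49.9 and 43.9 in combination replicates 1 and 4, while with anti-CSF-1R it was listed at 1 in replicates 1 and 2 and at 32.1 in replicate 4. The Pf4 values left out were 3.87, 38.7 or 387 in combination replicate 2, 4.90 or 49.0 in combination replicate 3, and 4.63, 46.3 or 463 in anti-CSF-1R replicate 3. Ccl7, a chemoattractant of monocytes, stood at 66.5, 60.04 and 59.03 in combination replicates 1, 2 and 4 and 10.7, 11.7 and 39.8 in anti-CSF-1R replicates 1, 2 and 4. Its values left out were 3.27 or 32.7 in combination replicate 3 and 4.63, 46.3 or 463 in anti-CSF-1R replicate 3. Of the 8 values of Ccr7, 4 could not be decoded, and no direction is drawn from it.

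Immediate early and heat shock genes stood higher in 27 of 33 (median 0.37), and the median was 0.15 without combination replicate 2. Of the 33, 2 had an unadjusted p under 0.05 on the higher side, against 5.56% of all genes. Fosb, an AP-1 subunit (chromosome 7, 19302696 to 19310051, minus strand), stood at 1303, 1625, 653 and 925 in the combination and 680, 481, 476 and 324 with anti-CSF-1R, where the lowest combination value lay below the highest anti-CSF-1R value (log2 fold change 1.16 ± 0.28 SE, limma adjusted p = 0.322). Fos stood at 933, 2469, 265 and 772 in the combination and 416, 299, 518 and 384 with anti-CSF-1R, so combination replicate 3 was the lowest of the 8. Immediate early genes also respond to handling of cells during sorting, which was not measured here.

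The p53 and DNA damage list held few genes with a small p but differed slightly in level. Of its 30 measured genes 23 stood higher (median 0.36), with 1 at an unadjusted p under 0.05. Levels of the list were -0.049, 0.213, 0.093 and 0.09 in combination replicates 1 to 4 and -0.269, -0.052, -0.225 and -0.153 in anti-CSF-1R replicates 1 to 4. The groups did not overlap but nearly touched, and the 4 controls spanned -0.151 to 0.127. That gene, Trp53inp1, a stress-induced p53 target, stood at 301, 310, 457 and 262 in the combination and 218, 254, 152 and 218 with anti-CSF-1R, without overlap (log2 fold change 0.65 ± 0.26 SE, limma adjusted p = 0.46). When the decoding ignored treatment its log2 fold change was 0.49 (unadjusted p = 0.0947 by limma), and its unadjusted p was 0.0883 without anti-CSF-1R replicate 3, so the list then held 0 such genes. Btg2 was 5713 in combination replicate 2 and 1468 to 1816 in the other combination libraries, against 1266 to 1628 with anti-CSF-1R. Of 32 BCL2 family and cell death genes 21 stood higher (median 0.18). At an unadjusted p under 0.05 were 3 on the higher side and 1 on the lower, against 5.56% and 3.59% of all genes. Bid, a pro-apoptotic BH3-only protein (chromosome 6, 120891930 to 120916853, minus strand, overlapping Bcl2l13 on the other strand), stood at 76.9, 73.6, 96.4 and 54.9 in the combination and 31.3, 39.1, 19.7 and 54.2 with anti-CSF-1R, and the nearest pair nearly touched. Whether counting used strand is not stated, so reads of Bid and its partner cannot be told apart. Bcl2a1d, an anti-apoptotic member with near-identical copies, stood lower, at 58.2, 143 and 124 in combination replicates 1, 2 and 4 and 189, 295, 467 and 114 with anti-CSF-1R, and anti-CSF-1R replicate 4 lay within the combination range.

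Metabolic and growth lists held few genes with a small p. Of 35 hypoxia and glycolysis genes 25 stood higher (median 0.06), with 1 at an unadjusted p under 0.05. The direction of the list turned on single libraries and on scaling: 13 stood higher without combination replicate 2 (median -0.03), 17 without anti-CSF-1R replicate 1 (-0.01), 28 without combination replicate 1 (0.25) and 14 after quantile normalisation (-0.04). The 1 gene was Pfkfb4, which sets the level of a glycolysis activator (chromosome 9, 108991778 to 109032228, plus strand), at 116, 165, 93.1 and 87.9 in the combination and 62.6, 70.4, 31.3 and 67.5 with anti-CSF-1R, without overlap. Of 77 cytosolic ribosomal protein genes 66 stood lower (median -0.31), and the median was -0.13 without anti-CSF-1R replicate 1. On the lower side 3 had an unadjusted p under 0.05, against 3.59% of all genes. Rpl4 stood at 376, 167, 203 and 360 in the combination and 700, 262, 500 and 364 with anti-CSF-1R, and anti-CSF-1R replicates 2 and 4 lay within the combination range. Oxidative phosphorylation (33 of 72 higher, median -0.03), proliferation (11 of 24 higher, median -0.09) and NADPH oxidase genes (10 of 21 higher, median -0.06) had medians near that of all genes. Of 15 glucocorticoid-responsive genes 10 stood higher (median 0.11), with 2 at an unadjusted p under 0.05, among them Tsc22d3 (GILZ), at 148, 289 and 214 in combination replicates 1, 2 and 4 and 119, 80.2 and 49.8 in anti-CSF-1R replicates 1, 2 and 3. Its values left out were 22.9 or 229 in combination replicate 3 and 9.96 or 99.6 in anti-CSF-1R replicate 4.

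The genes with the smallest p and no overlap, 10 each way, held genes outside these lists. They were picked for their p, so their separation is a description. Kif3b, a kinesin motor subunit (chromosome 2, 153291413 to 153333390, plus strand), stood at 148, 128, 132 and 132 in the combination and 84.0, 60.6, 37.1 and 75.2 with anti-CSF-1R (log2 fold change 1.12 ± 0.24 SE, limma adjusted p = 0.321). Tmem154, a transmembrane protein (chromosome 3, 84666192 to 84704575, plus strand), stood at 224, 258, 221 and 253 in the combination and, with anti-CSF-1R, at 129, 141, 57.9 and 89.6 (log2 fold change 1.27 ± 0.28 SE, limma adjusted p = 0.322). In both genes the 4 combination libraries were close to each other and the lowest anti-CSF-1R library was replicate 3. Midn, which targets proteins to the proteasome, stood at 711, 748, 526 and 634 in the combination and 412, 409, 269 and 386 with anti-CSF-1R. Rara, the retinoic acid receptor alpha that acts in granulocyte maturation, stood at 470, 490, 358 and 367 in the combination and 270, 297, 183 and 208 with anti-CSF-1R. No value of Midn or Rara needed decoding. Gm14446, named Ifit1bl1 in RefSeq, stood at 287, 354, 211 and 185 in the combination and 61.7, 44.96 and 146 in anti-CSF-1R replicates 1, 2 and 4, all below the combination. The other 4 on the higher side were Map3k9, Sash3, Gm21975 and March1, beside Gbp4. For Sash3 the value left out in anti-CSF-1R replicate 1 was 13.4 or 134, and the higher one lies above combination replicate 4 (115).

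On the lower side Mpp7, a scaffold of cell polarity complexes (chromosome 18, 7347959 to 7626866, minus strand), had the smallest p. It stood at 93.5, 67.8, 113 and 53.5 in the combination and 401, 667 and 646 in anti-CSF-1R replicates 2, 3 and 4 (log2 fold change -2.81 ± 0.48 SE, limma adjusted p = 0.131). The value left out in anti-CSF-1R replicate 1 was 76.9 or 769, and the Mpp7 log2 fold change was -1.72 when the decoding ignored treatment (unadjusted p = 0.0425 by limma). Mpp7 stood at 152.6, 450.9, 85.1 and 68.5 in the 4 controls, so 1 control library lay among the anti-CSF-1R values. Stip1, an adaptor of the heat shock chaperones, stood at 60.3, 50.4, 68.6 and 49.4 in the combination and 112, 139, 123 and 87.4 with anti-CSF-1R, apart in all 8 libraries (log2 fold change -0.99 ± 0.25 SE, limma adjusted p = 0.322). The RNA helicases Skiv2l2 and Eif4a3, the peptidase subunit Pmpca, the acidic nuclear protein Anp32e, Specc1l and Cdc42bpg made up the rest beside Nfkb1 and Il10, with log2 fold changes between -1.67 and -0.99. For Cdc42bpg the value left out in anti-CSF-1R replicate 1 was 13.4 or 134, and its log2 fold change was -1.04 (unadjusted p = 0.0511 by limma) when the decoding ignored treatment. For Specc1l the value left out in combination replicate 1 was 16.6 or 166, and for Anp32e it was 8.31, 83.1 or 831. Only the lowest of these keeps the groups of either gene apart. For Pmpca the closest pair, combination replicate 3 and anti-CSF-1R replicate 1, both stood at 47.4.

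**Figure D4:**
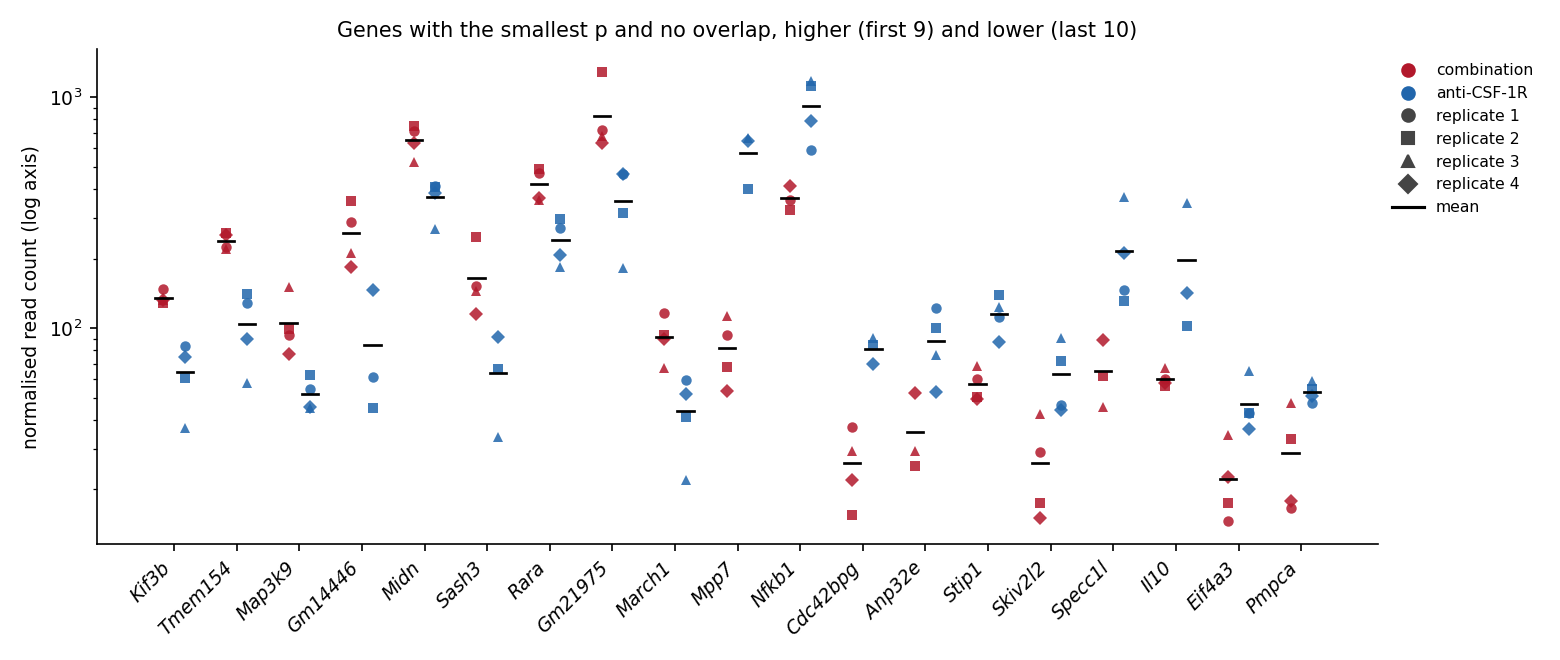
Normalised read counts (y axis, log scale) of 19 of the 20 genes with the smallest p and no overlap between the combination (red) and anti-CSF-1R (blue) libraries, Gbp4 being drawn with the interferon genes; symbols mark replicates, lines are group means, and values left out in decoding are not drawn. The drawn values of the groups are apart for each gene because the genes were chosen so.

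Cisplatin against control, the same drug and endpoint contrast without anti-CSF-1R, shares no library with the combination and anti-CSF-1R groups. There 4 of 9111 genes passed in limma (0.0439%), namely Sgms1, Irgm2, Klhl6 and Ptpn22 (the last pair named after their values were seen), and 659 had an unadjusted p under 0.05 (7.23%). The 4 calls rested on decoding that uses the groups, since 0 passed when it ignored treatment, and for Sgms1, Klhl6 and Ptpn22 the cisplatin replicate 1 value was left out. Irgm2 stood at 428, 262 and 255 with cisplatin and 110, 62.1, 87.0 and 62.0 in controls, a log2 fold change of 1.96 against 0.85 for combination over anti-CSF-1R. For Ifit3, Isg15, Irf7 and Stat2 the values of control replicates 2 and 3 were left out as uncertain, so this comparison leans on the other controls. The median log2 fold change of the type I interferon list was 0.56 with cisplatin over control (50 of 65 higher) and 1.07 with the combination over anti-CSF-1R. The interferon-gamma list had 0.47 (22 of 33 higher) and 0.94, the ribosomal protein list -0.43 (1 of 77 higher) and -0.31, and MHC class II -1.19 (2 of 9 higher) and -0.81. For hypoxia and glycolysis the medians were 0.43 (32 of 35 higher) and 0.06, and for inflammatory cytokines and NF-kB targets 0.27 (31 of 39 higher) and -0.17.

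**Figure D5:**
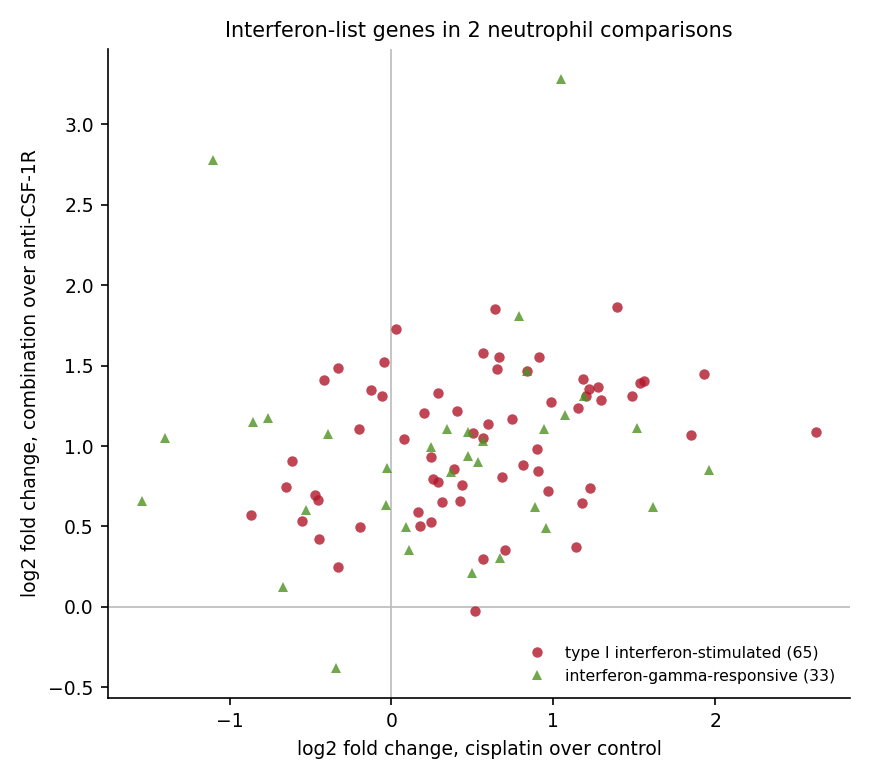
Log2 fold change of combination over anti-CSF-1R (y axis) against cisplatin over control (x axis) for 65 type I interferon-stimulated genes (circles) and 33 interferon-gamma-responsive genes (triangles) of neutrophils; genes in both lists are drawn as both. Nearly all points lie above 0 on the y axis, while on the x axis 15 of the 65 and 11 of the 33 lie below 0.

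Whether the response to cisplatin differed under anti-CSF-1R was tested by the difference of these differences. Of 9103 genes limma passed 0 (0.0%, lowest adjusted p 0.358), with 438 at an unadjusted p under 0.05 (4.81%). The smallest p was that of Tnfrsf9 (4-1BB), a costimulatory receptor. It stood at 14.5, 13.6, 6.53 and 14.4 in the combination and 23.2, 35.2, 29.0 and 28.8 with anti-CSF-1R, but at 20.9, 25.4 and 15.7 with cisplatin and 5.92, 5.91, 7.40 and 10.2 in controls (difference -2.60 ± 0.49 SE, limma adjusted p = 0.358). Lst1, a leukocyte membrane protein, went the other way, at 99.8, 77.5, 126 and 152 in the combination and 54.5, 56.7, 49.8 and 65.3 with anti-CSF-1R, and at 49.3, 42.3 and 28.5 with cisplatin and 60.7, 65.0, 74.0 and 128 in controls (difference 1.94 ± 0.41 SE, limma adjusted p = 0.525). As decoded, both genes had groups apart in each comparison and in opposite directions. Tnfrsf9 was low, with 1 read worth 1.48 in control replicate 1, and the places of such low values rest on decoding that uses the groups. Of the type I interferon genes 50 of 65 had a positive difference (median 0.47), with 4 at an unadjusted p under 0.05. The median difference was -0.04 without control replicate 4, the control library with the highest interferon level, so a larger interferon difference under anti-CSF-1R was not shown. Of the inflammatory cytokines and NF-kB targets 35 of 39 had a negative difference (median -0.51), with 5 at an unadjusted p under 0.05. These counts describe these libraries and are not a test. The list's median for combination over anti-CSF-1R, which enters this difference, ran from -0.41 to 0.02 when a library was left out.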

How the data were processed

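Intratumoral neutrophils were FACS-sorted and their RNA was amplified and sequenced with NuGEN and Illumina systems, per the labels' protocols. The deposited signal values are the authors' read counts per gene divided by a size factor per library. The submitters' processing notes name TopHat2 2.0.11 and DESeq2 among the tools, with CASAVA 1.8 for demultiplexing, Partek 6.6, R 3.3.1 and the mm10 build.

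Of 149940 values, 90.6% had 3 decimals and could have lost the place of the point. Places were decoded by requiring whole reads under a negative binomial model that uses the groups, and 5.28% of values, with a probability under 0.95, were left out. Decoded reads came to 998112 to 3283483 per library over the 15 neutrophil libraries.

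limma 3.58.1 in R 4.3.3 was fitted on log2(value + 1) with 4 groups in 1 fit and a trended variance, two-sided, for genes at 10 or more in at least 2 libraries, with Benjamini-Hochberg adjustment at 0.05. Fold changes on this scale understate changes of low genes. The method was tested on simulated data. GENCODE vM21 gave positions on GRCm38, which is mm10, for 104 of the 107 genes given values.

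Named genes were the 10 with the smallest p each way without overlap (3 or more values a group, log2 mean of 5 or more), the 4 smallest p of each programme list, the 10 smallest p of the difference of differences, and 5 sort checks. Some items are not reported here. Members and lists were chosen with earlier results of these data known.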

Additional observations from a re-analysis of the deposited data

Results flagged for a closer look

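Single libraries stood far from the others of their group (by Dixon's criterion) for 9 of 122 sets of gene values and 2 of 58 sets of list levels, and chance flags about 1 in 20 groups. Combination replicate 2 was the high one for 6 genes: Egr1 (12472), Btg2 (5713), Mmp9 (2822), Junb (1613), Gm21975 (1288) and Casp8 (730). This library also stood apart on the first principal component. Tnfrsf9 was lowest in combination replicate 3 (6.53) and Ptpn22 in combination replicate 1 (45.7). H2-T23 was highest in anti-CSF-1R replicate 1 (34.9). The level of the T and NK cell markers, of which 3 were measured, was lowest in combination replicate 3 (-1.70), and that of the endothelial markers, of which 2 were measured, was highest in anti-CSF-1R replicate 4 (0.56).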

How the results depend on the processing

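The count of genes passing in limma, 0 for combination against anti-CSF-1R, was 1 with only the 2 groups in the fit (Mpp7). With 1 library left out it was 0 to 1, with 495 to 935 genes at an unadjusted p under 0.05. The 1 gene was Gbp4 without combination replicate 1, Pf4 without anti-CSF-1R replicate 4 and Mpp7 without control replicate 2. The count for the difference of differences, 0, was 0 to 1 with a library left out (9930111J21Rik2 without control replicate 4), with 353 to 630 genes at an unadjusted p under 0.05. Both counts were 0 without combination replicate 2 and cisplatin replicate 2 together. Adgre1, a macrophage receptor kept as a check of the sort, had a log2 fold change of 0.47, which was -0.027 when the decoding ignored treatment and likewise -0.027 when every value took its most probable place. Of the other values for named genes, 2889 kept their direction and side of the threshold and 4 came to pass it. Since no gene passed between these groups to begin with, keeping that side says little about stability. The unadjusted p of Cdc42bpg by limma, for example, was 0.00021, and 0.0511 when the decoding ignored treatment. Of the medians of gene lists, 778 stayed within the spread taken for them and 24 moved. No paired analysis was possible because the labels number no replicates. Depth and the left-out places limit genes of low level most.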
